A study of Homo sapiens with 6 samples.

Results

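Cholesterol and fatty acid synthesis genes were followed in MDA-MB-231 cells, an established human triple-negative breast cancer (TNBC) cell line, after depletion of YAP1. The group holds 34 genes, chosen by name as enzymes, regulators and sterol carriers of the 2 pathways. All 34 reached the minimum mean level for testing, 0.5 FPKM across libraries, and entered the test, among 14770 genes tested of 60612 gene identifiers listed. RNA was sequenced from cells stably expressing Sh-NC, a control short hairpin RNA, or Sh-YAP1, a short hairpin RNA against YAP1, with 3 libraries in each group. The labels give the Sh-NC cells as wild type and the Sh-YAP1 cells as YAP1 knockdown, both on day 3 and both with no drug treatment. They do not say whether the libraries of a group came from separate cultures or how many hairpins and clones were used, so the p-values measure the spread between these libraries, which may be technical.

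Cholesterol is made from acetyl-CoA by the mevalonate pathway, which first yields isoprenoid diphosphates and then squalene, from which the sterol enzymes build cholesterol. Fatty acid synthesis draws on the same acetyl-CoA. The genes of both routes are known targets of the sterol regulatory element-binding proteins (SREBPs), encoded by SREBF1 and SREBF2, which SCAP escorts to the Golgi when sterol is low and which INSIG1 and INSIG2 hold back when it is high. Isoprenoids made from mevalonate anchor signalling proteins in membranes, and the mevalonate pathway is known to sustain YAP in the nucleus. The comparison lowers YAP1 and reads RNA, so whether mevalonate sustains YAP was not tested.

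The targeted gene was checked first. YAP1 was at 28.1, 26.2 and 22.9 FPKM in the Sh-NC libraries and at 3.35, 2.67 and 2.58 FPKM in Sh-YAP1, a difference of -2.79 in log2(FPKM + 1) (limma, Benjamini-Hochberg, adjusted p = 0.0018). WWTR1, which encodes the YAP paralog TAZ, did not pass the test (log2 difference 0.20, limma, Benjamini-Hochberg, adjusted p = 0.164). Its Sh-YAP1 libraries (46.75 to 52.07 FPKM) nevertheless all lay above Sh-NC (41.87 to 42.53 FPKM), as in 14.6% of all genes. The libraries had the profile of the named line in most markers. ESR1 and PGR stayed at or below 0.07 FPKM and CDH1 at or below 0.49 FPKM, while VIM was at least 1645 FPKM and CD44 at least 114 FPKM. The epithelial markers KRT8 (126 to 164 FPKM), KRT18 and EPCAM (2.43 to 3.27 FPKM) were also detected, and KRT18 separated the groups, with means of 124 FPKM in Sh-NC cells and 105.5 FPKM in Sh-YAP1 cells (log2 difference -0.23, limma, Benjamini-Hochberg, adjusted p = 0.102), whose relation to the results was not tested. ERBB2, which is low in TNBC, was nevertheless listed at 14.3 to 18.1 FPKM. Of the markers of other cell types, PTPRC, CD3E, CDH5 and VWF were at or below 0.04 FPKM, whereas CD68 was at 56.2 to 80.2 FPKM, COL1A1 at 3.64 to 8.32 FPKM and PECAM1 at 0.76 to 1.70 FPKM, and HBB, DCN and LUM reached at most 1.89 FPKM. COL1A2, a fibroblast collagen, was the 1 marker of another cell type that separated the groups, at 0.97 to 1.96 FPKM in Sh-NC against 0 to 0.72 FPKM in Sh-YAP1, and its relation to the results was not tested. FPKM (fragments per kilobase of transcript per fixed number of mapped fragments) is a relative level per length of transcript, so levels of different genes can be set side by side, but a lower share and less RNA per cell cannot be told apart. The libraries' depth is unknown, since the values carry no counts.

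Depletion of YAP1 was accompanied by lower expression of 2 enzymes of cholesterol synthesis, and the other genes of the group did not pass the test. Both calls were lost with any 1 library left out. MSMO1, a sterol enzyme, and ACAT2, a mevalonate enzyme, fell, and no gene of the group rose, by limma on log2(FPKM + 1) with Benjamini-Hochberg adjustment over all 14770 genes at an adjusted p under 0.05. These 2 of 34 stand beside 3.38% of all genes called in either direction, 1.62% called lower and 1.75% called higher. An unadjusted p under 0.05 was reached by 7 lower genes and 1 higher gene, against 21.9% of all genes. In 9 genes every Sh-YAP1 library lay below every Sh-NC library, and in 1 gene every Sh-YAP1 library lay above. Together these make 29.4% of the group, the same as the 29.4% of all genes whose groups did not overlap, with 14.7% of all genes lower and 14.6% higher. The difference was below 0 in 24 genes and above 0 in 10, with a median of -0.08 and a range from -0.52 to 0.41, beside a median of -0.001 over all genes.

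**Figure D1:**
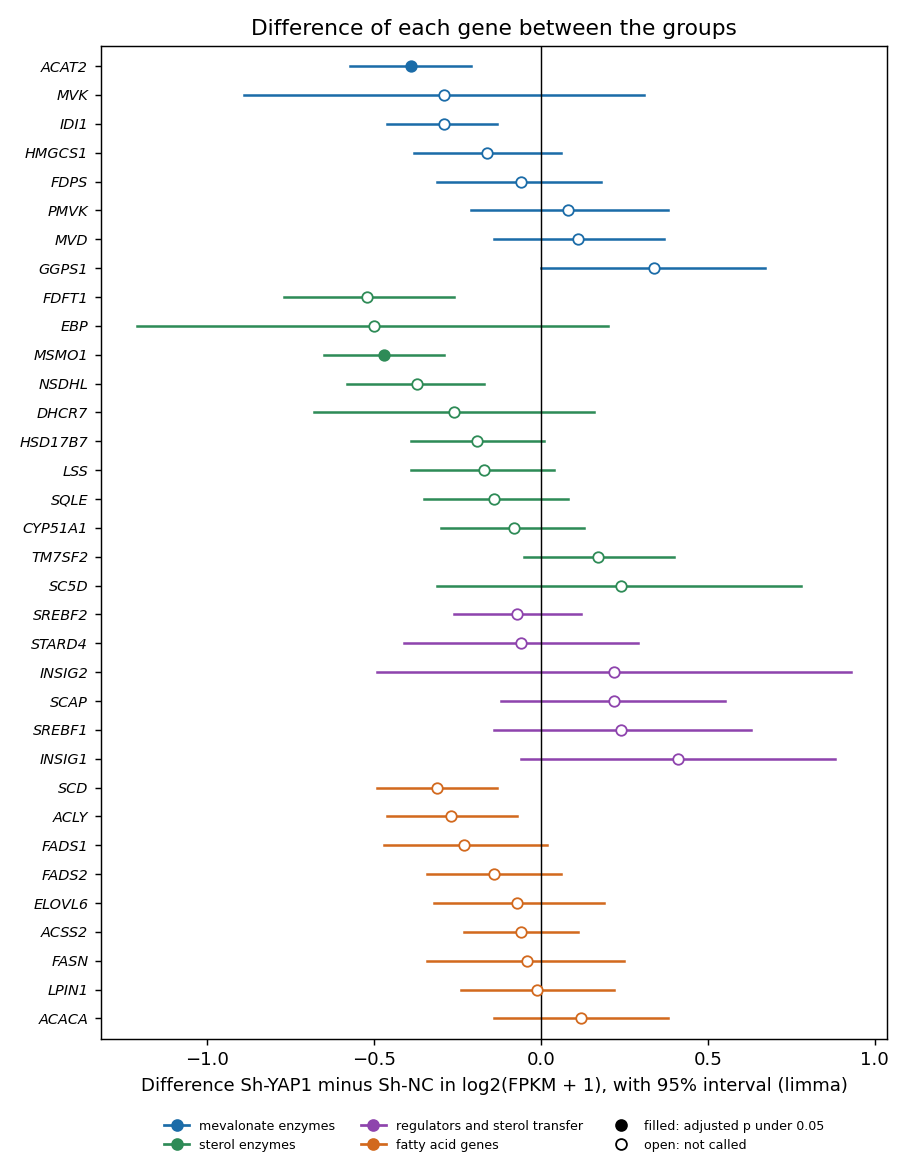
Difference between Sh-YAP1 and Sh-NC in log2(FPKM + 1) for the 34 genes (points) with the 95% interval from limma (lines), coloured by role, with n = 3 libraries per group. Only ACAT2 and MSMO1 are filled as called, and the differences run from -0.52 in FDFT1 to 0.41 in INSIG1.

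The sterol enzymes held the lowest differences of the group. MSMO1 (ENSG00000052802, chromosome 4, 165327623 to 165343160, plus strand of GRCh38) encodes a monooxygenase of sterol demethylation. It was at 27.7, 26.5 and 29.1 FPKM in Sh-NC and at 20.3, 20.3 and 18.7 FPKM in Sh-YAP1. All Sh-YAP1 libraries were clearly below all Sh-NC libraries, by more than the spread within either group. The mean was 27.8 ± 1.30 FPKM with Sh-NC and 19.8 ± 0.96 FPKM with Sh-YAP1 (SD, n = 3 each), a ratio of 0.711. The log2 difference was -0.47 (standard error 0.07, limma, Benjamini-Hochberg, adjusted p = 0.0279). NSDHL (ENSG00000147383, chromosome X, 152830967 to 152869729, plus strand), the dehydrogenase of the following step, was at 17.6, 16.6 and 16.3 FPKM in Sh-NC and at 11.6, 13.5 and 13.4 FPKM in Sh-YAP1. The groups did not overlap, but the difference of -0.37 did not pass (standard error 0.09, limma, Benjamini-Hochberg, adjusted p = 0.073). HSD17B7 encodes a ketosterol reductase of the same demethylation. It was at 12.4, 11.1 and 10.9 FPKM in Sh-NC and at 9.46, 10.5 and 9.89 FPKM in Sh-YAP1. Here the highest Sh-YAP1 library lay just under the lowest Sh-NC library, and the difference of -0.19 did not pass (limma, Benjamini-Hochberg, adjusted p = 0.253).

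FDFT1, squalene synthase, commits farnesyl diphosphate to sterols. It was at 51.3, 42.4 and 45.5 FPKM in Sh-NC and at 34, 28.4 and 33.8 FPKM in Sh-YAP1. Its difference of -0.52 (standard error 0.11) was the lowest of the 34 genes and the groups did not overlap, yet the wider spread left it outside the threshold (limma, Benjamini-Hochberg, adjusted p = 0.0555). LSS, which cyclises the squalene epoxide to lanosterol, was at 26.2, 29 and 23.7 FPKM in Sh-NC and at 23.7, 22.4 and 23.2 FPKM in Sh-YAP1. These groups overlapped narrowly, with Sh-YAP1 replicate 1 (23.72 FPKM) just above Sh-NC replicate 3 (23.67 FPKM). The LSS difference was -0.17 (limma, Benjamini-Hochberg, adjusted p = 0.309). TM7SF2, a sterol reductase, went the other way, with 6.73, 6.74 and 6.26 FPKM in Sh-NC cells and 6.83, 8.34 and 7.50 FPKM in Sh-YAP1 cells. It was the single gene of the group whose Sh-YAP1 libraries all lay above Sh-NC, and it did not pass (log2 difference 0.17, limma, Benjamini-Hochberg, adjusted p = 0.334).

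In the other 5 sterol enzymes the groups overlapped as well. The differences were -0.14 for SQLE, the squalene epoxidase, -0.08 for CYP51A1, the lanosterol demethylase, and -0.26 for DHCR7, the reductase of the last step to cholesterol, which ranged from -0.40 to -0.11 with 1 library left out. EBP, a sterol isomerase, had a difference of -0.50 that rested on Sh-NC replicate 2, at 38.9 FPKM against 19.9 and 20.8 FPKM in the other Sh-NC libraries, and was -0.20 without that library. SC5D, a sterol desaturase, had a difference of 0.24, which was -0.02 without Sh-NC replicate 2. Of the 11 sterol enzymes 1 was called, lower, beside 1.62% of all genes, and 9 had a difference below 0, beside 7420 of all 14770 genes, with a median of -0.19.

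Of the mevalonate enzymes, only ACAT2 passed the test. ACAT2 (ENSG00000120437, chromosome 6, 159760328 to 159779055, plus strand), the cytosolic thiolase that joins acetyl-CoA units at the start of the route, was at 104, 104 and 105 FPKM in Sh-NC and at 73.0, 85.9 and 79.9 FPKM in Sh-YAP1. The Sh-NC libraries lay almost on one value and all Sh-YAP1 libraries were lower. The mean was 104 ± 0.93 FPKM with the control hairpin and 79.6 ± 6.43 FPKM with the YAP1 hairpin (SD, n = 3 each), a ratio of 0.763, with a log2 difference of -0.39 (standard error 0.08, limma, Benjamini-Hochberg, adjusted p = 0.0497). It shares 397 exonic bases with TCP1 on the opposite strand in GENCODE 29, and the sources used here do not say whether strand was used in quantification. TCP1, a chaperonin subunit, averaged 102 FPKM in Sh-NC cells and 84.9 FPKM in Sh-YAP1 cells (log2 difference -0.25, limma, Benjamini-Hochberg, adjusted p = 0.287), and its part in the ACAT2 value was not tested.

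IDI1, which isomerises isopentenyl diphosphate, was at 34.5, 38.4 and 35.8 FPKM in Sh-NC and at 29.8, 29.5 and 28.8 FPKM in Sh-YAP1. The groups were apart, with a difference of -0.29 that did not pass (standard error 0.07, limma, Benjamini-Hochberg, adjusted p = 0.0763). HMGCS1, which adds acetyl-CoA to the thiolase product, was at 22.5, 18.7 and 19.0 FPKM in Sh-NC and at 17.2, 17.5 and 18.7 FPKM in Sh-YAP1. Its closest libraries were nearly equal, and its difference was -0.16 (limma, Benjamini-Hochberg, adjusted p = 0.358), or -0.08 without Sh-NC replicate 1. GGPS1, which makes the geranylgeranyl diphosphate used in protein prenylation, had the opposite sign, with 9.68, 7.57 and 7.82 FPKM in Sh-NC cells and 11.1, 12.3 and 9.06 FPKM in Sh-YAP1 cells. Its groups overlapped and the difference of 0.34 did not pass (standard error 0.14, limma, Benjamini-Hochberg, adjusted p = 0.223). GGPS1 shares 138 exonic bases with ARID4B on the opposite strand, which averaged 4.70 FPKM in Sh-NC cells and 6.77 FPKM in Sh-YAP1 cells, and 1422 with ENSG00000285053 on its own strand, and their part was not tested.

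The kinases MVK and PMVK, the decarboxylase MVD and the farnesyl diphosphate synthase FDPS had differences of -0.29, 0.08, 0.11 and -0.06, and in each the groups overlapped. MVK was highest in replicate 2 of either group, at 26.8 FPKM in Sh-NC cells and 20.9 FPKM in Sh-YAP1 cells, and its difference was -0.06 without Sh-NC replicate 2. Of the 8 mevalonate enzymes 1 was called, lower, beside 1.62% of all genes, and the median difference was -0.11. The branch point showed both signs, with the farnesyl-consuming FDFT1 at -0.52 and the geranylgeranyl-forming GGPS1 at 0.34, only the first without overlap between the groups. The contrast between these genes was not tested.

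The calls for MSMO1 and ACAT2 depended on the full set of libraries. With any 1 of the 6 libraries left out, the adjusted p (limma, Benjamini-Hochberg) lay between 0.069 and 0.0998 for MSMO1 and between 0.0869 and 0.145 for ACAT2, and the number of all genes called fell from 499 to between 78 and 171. The log2 differences stayed between -0.50 and -0.43 for MSMO1 and between -0.44 and -0.33 for ACAT2. With the highest transcript of each gene in place of the gene sum, MSMO1 gave -0.22 (limma, Benjamini-Hochberg, adjusted p = 0.742). The exact permutation test (two-sided) gave p = 0.1 for each of the 10 genes whose groups did not overlap, the smallest p that 3 libraries against 3 allow.

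**Figure D2:**
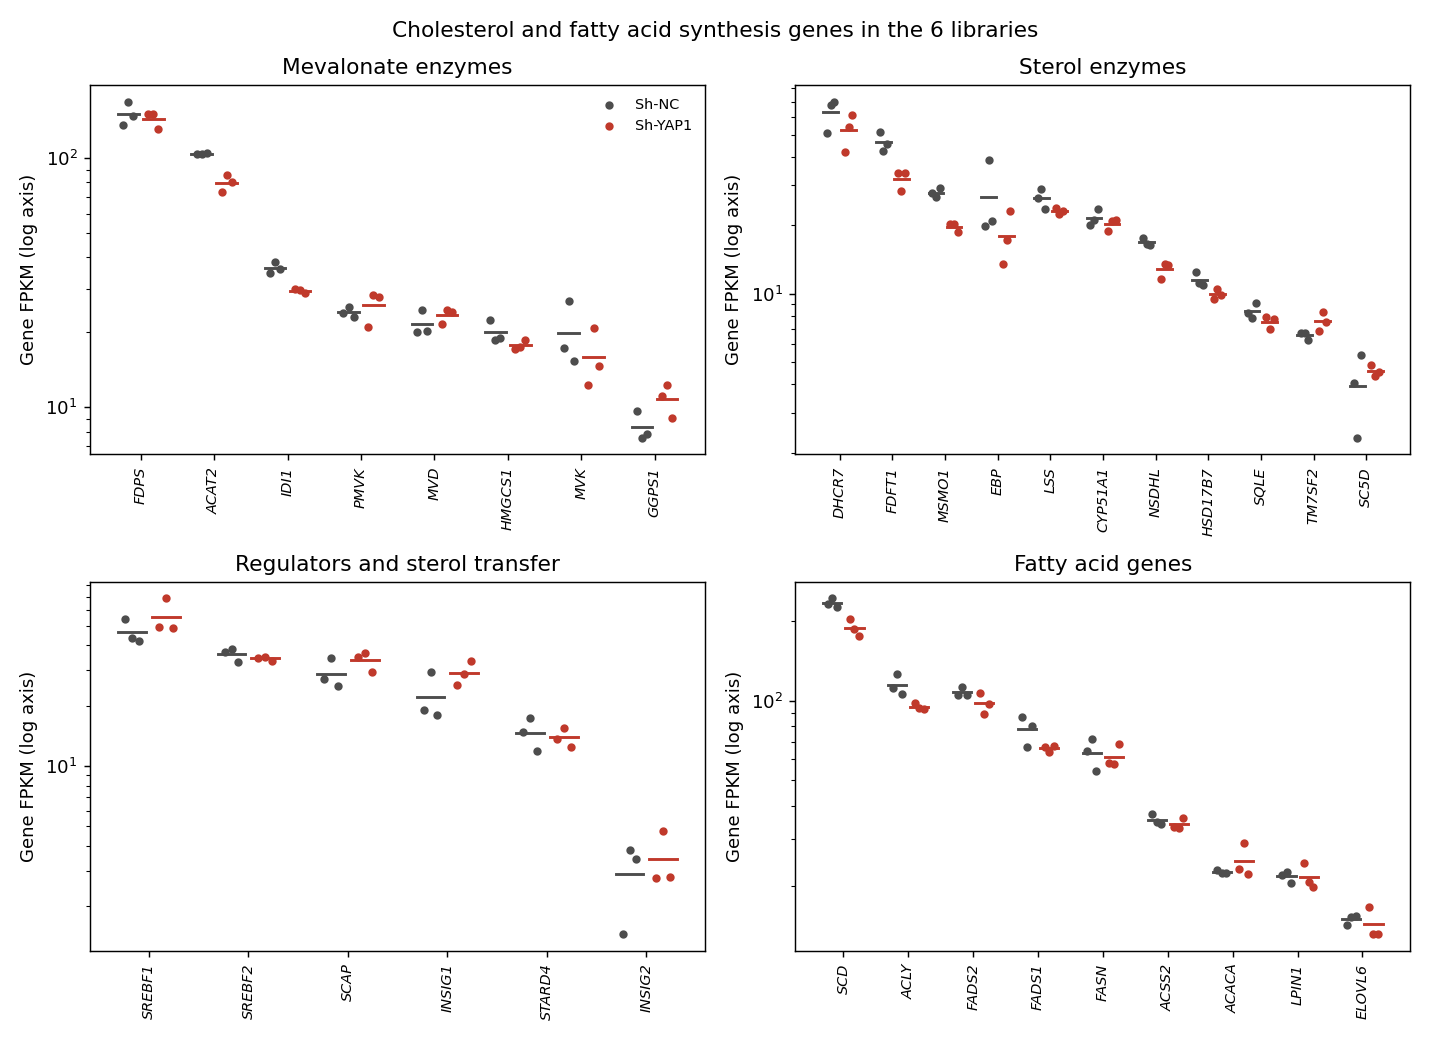
Expression of the 34 genes in FPKM on log axes, 1 panel per role, with 1 point per library (3 Sh-NC, 3 Sh-YAP1) and the mean of each group as a line. MSMO1, NSDHL, FDFT1, HSD17B7, IDI1, ACAT2, HMGCS1, SCD and ACLY show all Sh-YAP1 points below the Sh-NC points, while the regulators overlap throughout.

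Among the fatty acid genes none was called (limma, Benjamini-Hochberg), 2 of 9 had an unadjusted p under 0.05, both lower, and the same 2 had no overlap between the groups. These are 22.2% of the 9 genes, close to the 21.9% of all genes with such a p and below the 29.4% without overlap. SCD, the desaturase that makes oleate and the most abundant gene of the 34, was at 231, 243 and 226 FPKM in Sh-NC and at 203, 186 and 175 FPKM in Sh-YAP1. The groups were well apart in absolute terms, from 234 ± 8.61 to 188 ± 13.8 FPKM (SD, n = 3 each), although the log2 difference of -0.31 did not pass (standard error 0.08, limma, Benjamini-Hochberg, adjusted p = 0.0802). ACLY, which cleaves citrate into the acetyl-CoA that both pathways use, was at 112, 126 and 106 FPKM in Sh-NC and at 98.2, 93.9 and 92.8 FPKM in Sh-YAP1. Its difference was -0.27 (standard error 0.08, limma, Benjamini-Hochberg, adjusted p = 0.129). FADS1, a front-end desaturase of polyunsaturated fatty acids, was at 86.6, 66.9 and 80.1 FPKM in Sh-NC and at 66.8, 64.2 and 67.2 FPKM in Sh-YAP1. Sh-NC replicate 2 lay among the Sh-YAP1 libraries, and the difference was -0.23 (limma, Benjamini-Hochberg, adjusted p = 0.259).

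The enzymes that build the fatty acid chain itself were close to level. FASN, fatty acid synthase, had means of 63.4 ± 8.70 and 61.4 ± 6.38 FPKM (SD, n = 3 each), a difference of -0.04 with a 95% interval from -0.34 to 0.25. ACACA, the acetyl-CoA carboxylase that supplies malonyl-CoA, was at 22.6 ± 0.32 and 24.8 ± 3.61 FPKM (SD, n = 3 each), a difference of 0.12 with an interval from -0.14 to 0.38. The intervals leave room for changes in either direction. ELOVL6, an elongase, ACSS2, which makes acetyl-CoA from acetate, LPIN1, a phosphatidate phosphatase, and FADS2, the other front-end desaturase, had differences between -0.14 and -0.01, with overlapping groups. FADS1 and FADS2 share 490 exonic bases on opposite strands, and the part of this overlap in either value was not tested.

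None of the 6 regulators was called, beside 3.38% of all genes, and 4 of them had a difference above 0. INSIG1, the SCAP retention protein, was at 19.0, 29.3 and 18.0 FPKM in Sh-NC and at 25.4, 28.8 and 33.5 FPKM in Sh-YAP1. Sh-NC replicate 2 lay among the Sh-YAP1 libraries, and the difference of 0.41 did not pass (standard error 0.20, limma, Benjamini-Hochberg, adjusted p = 0.283). With 1 library left out it ranged from 0.29 (without Sh-NC replicate 3) to 0.62 (without Sh-NC replicate 2), with limma adjusted p values from 0.109 to 0.501. SREBF1, INSIG2 and SCAP had differences of 0.24, 0.22 and 0.22 (SCAP from 0.12 to 0.35 with 1 library left out, INSIG2 -0.09 without Sh-NC replicate 1), and SREBF2 and STARD4, a sterol carrier, had differences of -0.07 and -0.06. SREBF1 was highest in Sh-YAP1 replicate 2, at 68.6 FPKM, and its difference was 0.08 without that library. The groups overlapped in all 6 regulators, while 29.4% of all genes had no overlap. Of the 6 regulators, 0 had an unadjusted limma p under 0.05, beside 21.9% of all genes, and the median difference was 0.22. A limma p that misses the threshold does not show equal levels, as the interval for INSIG1 ran from -0.06 to 0.88.

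Summed over genes, the 11 sterol enzymes held 245, 270 and 261 FPKM in the Sh-NC libraries and 193, 207 and 224 FPKM in the Sh-YAP1 libraries. The sums did not overlap and averaged 258.5 ± 12.7 and 208.0 ± 15.6 FPKM (SD, n = 3 each). The 9 fatty acid genes summed to 692 ± 25.6 and 603 ± 23.8 FPKM (SD, n = 3 each), again without overlap, with SCD as the largest contributor. The sums of the 8 mevalonate enzymes, 385.5 ± 24.8 and 347 ± 20.0 FPKM, and of the 6 regulators, 151.5 ± 16.7 and 170.3 ± 16.6 FPKM (SD, n = 3 each), overlapped between the groups. These sums were given no test. The order of the genes by level changed little, with SCD and FDPS highest and SC5D and INSIG2 lowest in both groups. MSMO1 moved from rank 15 to rank 22, EBP from rank 16 to rank 23 and INSIG1 from rank 20 to rank 15. Sh-NC replicate 2 exceeded the other Sh-NC libraries for EBP (38.92 against 19.85 and 20.82 FPKM) and INSIG1 (29.34 against 19.02 and 17.97 FPKM). Its part in these ranks was not tested.

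In several genes single transcripts varied between libraries of 1 group where the gene total did not. None of the 273 transcripts of these genes that were tested, of 407 listed, was called by limma with Benjamini-Hochberg adjustment, against 0.0515% of 77655 transcripts, and 17 had an unadjusted p under 0.05 (6.23%, against 6.12% of all transcripts), 11 lower and 6 higher. Absence of a call does not show equal transcript levels. In MSMO1 the most abundant transcript held 21.7, 11.8 and 21.8 FPKM in Sh-NC cells and 16, 16.7 and 13 FPKM in Sh-YAP1 cells. The second held 4.52, 13.3 and 6.50 FPKM in Sh-NC, so the low first transcript of Sh-NC replicate 2 stood beside a high second one. In IDI1 the first transcript was at 5.66 FPKM in Sh-YAP1 replicate 3, against 23.4 and 24.2 FPKM in the other Sh-YAP1 libraries, and the second was at 20.4 FPKM there. The IDI1 totals of those libraries nevertheless lay between 28.8 and 29.8 FPKM.

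FDFT1 showed a shift of the same kind. Its first transcript was at 1.4 FPKM in Sh-NC replicate 1 and between 17.9 and 23.3 FPKM in the other 5 libraries, so that transcript alone gave a difference of 1.02, the opposite sign to the gene total. ACAT2 and SCD carried no such split, as 1 transcript held 97.5% of ACAT2 and SCD has 1 transcript. The lowest adjusted p among the transcripts was 0.0883 (limma, Benjamini-Hochberg), for a minor SREBF2 transcript with 2.6% of the gene, at 1.74, 2.09 and 1.65 FPKM in Sh-NC and at 0, 0 and 0.01 FPKM in Sh-YAP1. The transcript identifiers are not among the values, so transcripts are given by rank within the gene.

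**Figure D3:**
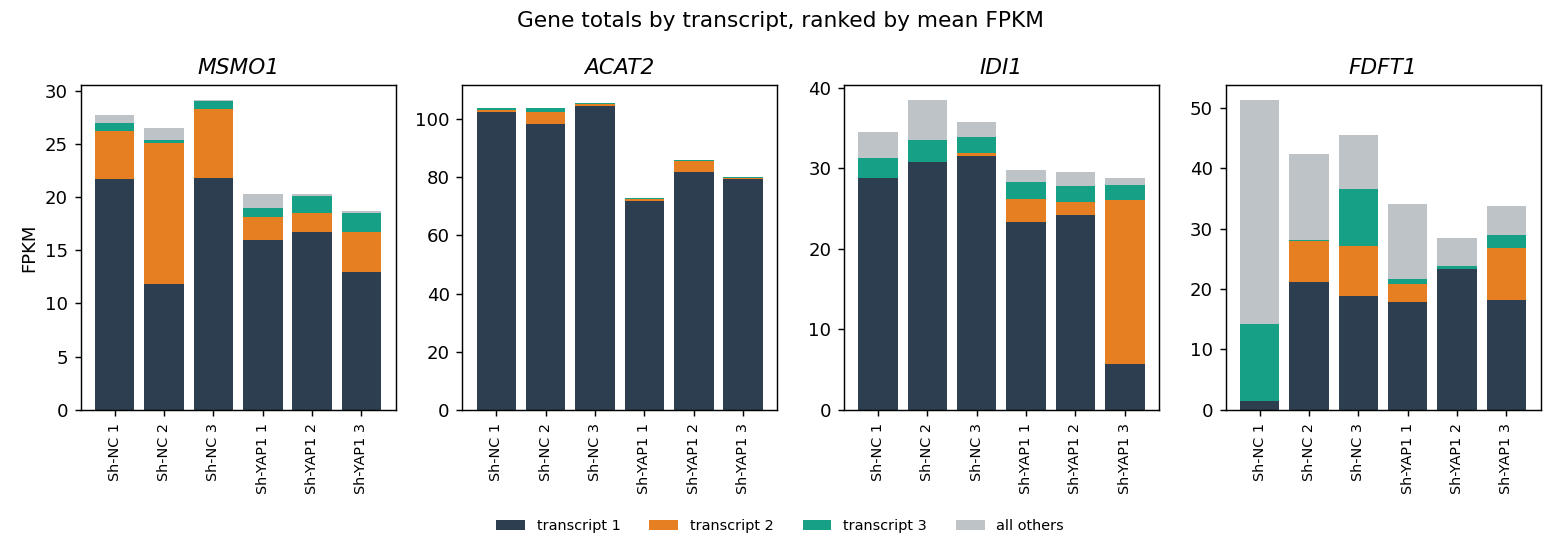
FPKM of MSMO1, ACAT2, IDI1 and FDFT1 in each of the 6 libraries, with bars stacked by transcript (the 3 most abundant by mean, and all others together). The totals of the 3 Sh-YAP1 libraries lie below those of the 3 Sh-NC libraries in all 4 genes, while in MSMO1, IDI1 and FDFT1 the share of the transcripts shifts between libraries of 1 group, as in Sh-YAP1 replicate 3 for IDI1 and Sh-NC replicate 1 for FDFT1.

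The promoters of these genes are known for SREBP sites and for neighbouring sites of NF-Y, a factor that acts together with SREBPs. RefSeq promoter windows of GRCh38.p14, 250 bases before to 50 bases after the start, were found for 30 of the 34 genes (45 windows). The NF-Y word CCAAT, on either strand, stood in 26 of the 45 windows (57.8%) and in 22 of the 30 genes, against 34.6% of all 35116 windows and 34.9% of those of tested genes. The sterol regulatory element word TCACNCCAC stood in 1 window, that of SREBF2, against 1.1% of all windows. A search for 1 exact word misses sites with other letters, so its absence does not show that a promoter lacks an SREBP site. The word CATTCC, which the TEAD partners of YAP bind, stood in 6 windows (13.3%) against 14% of all windows and 11.4% of those of tested genes. CCAAT can share bases with CATTCC or with its own reverse complement, as it does in NSDHL, and a match is a description of the letters in the window and not a bound site. Windows of 1 gene can overlap, and the shares were given no test.

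The upstream part of 4 windows is shown, for the 3 genes with the lowest p that had a window (MSMO1, NSDHL and IDI1) and, added after the search, for SREBF2 as the 1 gene with the sterol word. Each is written in the direction of transcription, 5′ to 3′, up to the more upstream of the RefSeq and GENCODE 29 starts. Capitals mark CCAAT or its reverse complement ATTGG, and in SREBF2 also the sterol word.
MSMO1, chr4:165327419-165327622, plus strand: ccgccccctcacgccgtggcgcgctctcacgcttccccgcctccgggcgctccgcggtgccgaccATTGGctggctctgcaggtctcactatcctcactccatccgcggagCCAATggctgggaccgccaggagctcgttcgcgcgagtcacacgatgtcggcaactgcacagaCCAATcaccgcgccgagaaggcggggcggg
NSDHL, chrX:152830813-152830966, plus strand: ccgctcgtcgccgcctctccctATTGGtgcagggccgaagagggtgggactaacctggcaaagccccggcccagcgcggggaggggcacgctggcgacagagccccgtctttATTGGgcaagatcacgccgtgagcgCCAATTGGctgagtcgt
IDI1, chr10:1049171-1049369, minus strand: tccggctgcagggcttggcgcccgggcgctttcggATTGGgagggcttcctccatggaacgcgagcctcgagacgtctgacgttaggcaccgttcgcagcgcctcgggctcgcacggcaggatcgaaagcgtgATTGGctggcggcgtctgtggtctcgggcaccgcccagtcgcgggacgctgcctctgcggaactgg
SREBF2, chr22:41832855-41833078, plus strand: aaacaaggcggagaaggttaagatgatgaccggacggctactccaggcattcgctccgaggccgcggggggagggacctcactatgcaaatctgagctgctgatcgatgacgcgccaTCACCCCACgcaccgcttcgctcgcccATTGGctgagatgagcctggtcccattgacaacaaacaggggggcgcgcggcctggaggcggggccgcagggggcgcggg
MSMO1, NSDHL and IDI1, whose Sh-YAP1 libraries all lay below Sh-NC, held at least 2 NF-Y words each. The word also stood in windows of TM7SF2, MVD and GGPS1, whose differences were above 0. In SREBF2 the sterol word began 133 bases before the RefSeq start and the NF-Y word 106 bases before it.

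Genes around the 2 pathways were read from 5 further lists with 103 genes, of which 95 were tested and 7 were called (limma, Benjamini-Hochberg), 4 lower and 3 higher, beside 3.38% of all genes called. Like the 34 genes, the lists were chosen with earlier results known, so these counts are a description. Cholesterol transport, storage and efflux held 5 of them, 3 lower and 2 higher among 18 tested. LIPA (ENSG00000107798, chromosome 10, 89213569 to 89414557, minus strand), the lysosomal lipase that frees cholesterol from its esters, was at 62.3, 61.6 and 61.0 FPKM in Sh-NC and at 29.9, 30.2 and 31.7 FPKM in Sh-YAP1. The replicates lay close together in either group and the ratio of the means was 0.496 (log2 difference -0.99, standard error 0.06, limma, Benjamini-Hochberg, adjusted p = 0.00411). A gene on the opposite strand, ENSG00000232110, shares 135 exonic bases with LIPA and averaged 28.0 FPKM in Sh-NC cells and 12.6 FPKM in Sh-YAP1 cells, and its part in the LIPA value was not tested.

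NCEH1, a hydrolase of cholesterol esters in the cytoplasm, was at 52.6, 51.1 and 52.0 FPKM in Sh-NC and at 31.5, 31.1 and 32.2 FPKM in Sh-YAP1. It fell together with LIPA, with tight replicates (log2 difference -0.70, limma, Benjamini-Hochberg, adjusted p = 0.00686). SCARB1, the receptor that takes up cholesterol esters from high-density lipoprotein, was at 16.2, 15.7 and 13.8 FPKM in Sh-NC and at 8.42, 10.6 and 7.31 FPKM in Sh-YAP1 (log2 difference -0.74, limma, Benjamini-Hochberg, adjusted p = 0.0424). ABCA1, the pump that hands cholesterol to lipoprotein particles, was at 4.26, 4.74 and 4.55 FPKM in Sh-NC and at 7.52, 6.87 and 7.12 FPKM in Sh-YAP1, and rose by 0.57 on the log2 scale (limma, Benjamini-Hochberg, adjusted p = 0.0242). NR1H3, the liver X receptor alpha that activates ABCA1 when oxysterols rise, was at 13.4, 12 and 11.2 FPKM in Sh-NC and at 17, 16.6 and 17 FPKM in Sh-YAP1 (log2 difference 0.44, limma, Benjamini-Hochberg, adjusted p = 0.0491). NR1H3 was named after its values were seen, since the naming rule took at most 4 genes of a list, and it shares 189 exonic bases with ACP2 on the opposite strand, which averaged 19.7 FPKM in Sh-NC cells and 16.5 FPKM in Sh-YAP1 cells. The list was mixed as a whole, with 7 differences below 0, 11 above 0 and a median of 0.08.

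A pair of NADPH-forming enzymes of lipid synthesis moved in opposite directions, and both belonged to the list of fatty acid elongation, activation and glycerolipid synthesis. IDH1, cytosolic isocitrate dehydrogenase, was at 69.5, 64.0 and 68.3 FPKM in Sh-NC and at 36.6, 37.4 and 38.2 FPKM in Sh-YAP1, a fall of the mean to a ratio of 0.556 (log2 difference -0.83, limma, Benjamini-Hochberg, adjusted p = 0.00686). ME1, malic enzyme, was at 4.83, 4.32 and 5.88 FPKM in Sh-NC and at 9.58, 9.05 and 8.69 FPKM in Sh-YAP1, a ratio of 1.82 (log2 difference 0.76, limma, Benjamini-Hochberg, adjusted p = 0.0252). They were the only genes called among the 27 tested in that list. With any 1 library left out, LIPA, NCEH1 and IDH1 stayed called, with adjusted p values (limma, Benjamini-Hochberg) between 0.021 and 0.0426. SCARB1, ABCA1 and NR1H3 were not called in any of these 6 fits, with adjusted p values between 0.0546 and 0.143, and ME1 was called in 1 of the 6, that without Sh-NC replicate 3. With the highest transcript in place of the gene sum, LIPA alone of the 7 stayed called, and the log2 difference was -0.49 for IDH1, -0.45 for NCEH1, -2.28 for SCARB1 and 1.30 for NR1H3 (limma, Benjamini-Hochberg, adjusted p = 0.933, 0.904, 0.0946 and 0.371). Over the reported fit and the 17 alternatives, NR1H3 was called in 5 of 18 settings, SCARB1 in 8, ABCA1 and ME1 in 10 each, IDH1 and NCEH1 in 16 each and LIPA in 17.

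**Figure D4:**
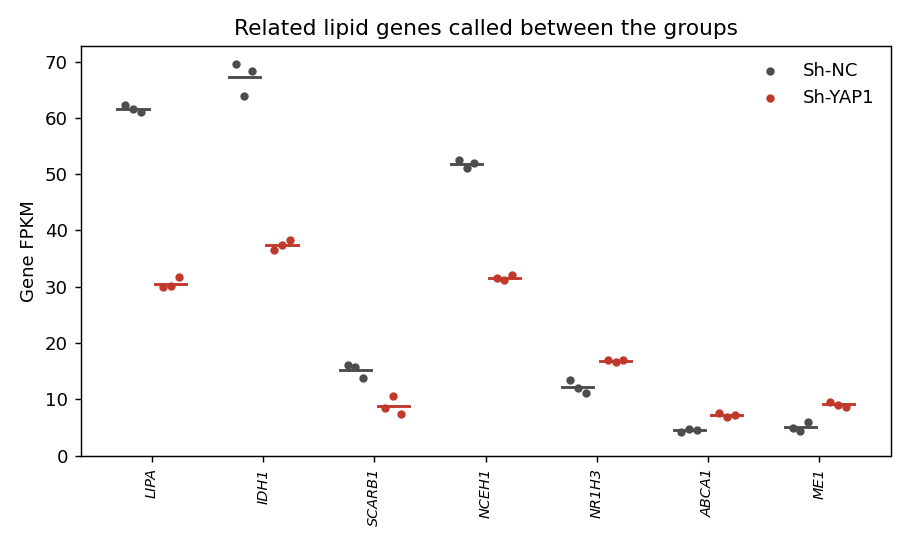
Expression in FPKM of the 7 called genes of the related lists, with 1 point per library (3 Sh-NC, 3 Sh-YAP1) and the mean of each group as a line. LIPA, IDH1, SCARB1 and NCEH1 lie lower in all 3 Sh-YAP1 libraries and NR1H3, ABCA1 and ME1 higher, with no overlap between the groups.

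The other 3 lists held no called gene, and their counts at an unadjusted p under 0.05 stand beside 21.9% of all genes. Of 17 genes of protein prenylation and the isoprenoid branch, 4 were lower and 4 higher at an unadjusted limma p under 0.05, and 0 passed the adjustment. Of 14 genes of sterol sensing and SREBP processing, 1 was lower and 6 were higher at an unadjusted limma p under 0.05. Of 19 genes of fatty acid oxidation, 3 were lower and 4 higher at an unadjusted limma p under 0.05, with a median difference of 0.07.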

How the data were processed

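RNA was sequenced in 6 libraries of MDA-MB-231 cells, 3 Sh-NC and 3 Sh-YAP1. The paper's methods name another data accession, and these libraries were tied to the paper only through the line, hairpin and replicate given in their labels. The authors deposited FPKM with 2 decimals for 229420 transcripts per library. The submitters' processing notes name hg19, HISAT2 2.0 and Bowtie 0.12.2 without a role. The quantifier, annotation and strand setting are not given in the sources used here. Depth is unknown, so errors come from the spread between libraries. FPKM summed to 467493 to 475116 per library.

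Transcripts were summed by gene identifier and log2(FPKM + 1) was used, which understates the change of low genes. Features below a mean of 0.5 FPKM (genes) or 0.1 FPKM (transcripts) were left out, and the rest were compared with limma 3.58.1 (mean-variance trend) in R 4.3.3, with Benjamini-Hochberg adjustment over all features tested (called: adjusted p under 0.05). Positions and exonic overlaps are from GENCODE 29 on GRCh38. The summaries used Python 3.11.15, pandas 2.3.3 and scipy 1.17.1. Per-library values are given for called genes and the 14 with the lowest p, and from each related list for at most 4 called genes without overlap. Members and lists were chosen with earlier results of these data known. There were 17 alternatives to the gene fit.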

Additional observations from a re-analysis of the deposited data

How the results depend on the processing

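The 2 calls among the 34 genes depended on the processing. The number called was 1 with a pseudocount of 0.1 or 0.01, quantile normalization, no mean-variance trend, no filter, or gene sums without transcripts over 1 FPKM in 1 library, and in each of these it was MSMO1. It was 0 with the replicate number as a block, with the highest transcript of each gene and with each library left out. ACAT2, at 0.0497, was called under 3 of 17 alternatives (centring, the stricter filter, and gene sums over transcripts of at least 0.1 FPKM), with limma adjusted p values from 0.0449 to 0.157 over all settings. Over all genes, 499 were called in the reported fit, 232 without a filter, 96 with the highest transcript, 78 to 171 with 1 library left out and 1, YAP1, with the replicate block. Of the related lists, 4 genes were called without a filter, 1 with the highest transcript, 0 with the replicate block and 3 to 4 with 1 library left out, in place of 7. After subtraction of the group mean, libraries that share a number had Pearson correlations of -0.028, 0.062 and 0.004 over the genes tested, so the numbers were not taken as pairs; with the replicate block 2779 genes had an unadjusted limma p under 0.05, and 8 of the 34 genes did, as in the reported fit.

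The median difference of the 34 genes was -0.126 with the highest transcript and between -0.14 and -0.065 with 1 library left out. Of their transcripts, 1 was called with a pseudocount of 0.1 or 0.01 and without the trend. YAP1 gave -1.97 with its highest transcript (limma adjusted p = 0.381) and was called in all other settings, with adjusted p values down to 0.00164. Only genes that were not called changed sign. The highest transcript gave 1.02 for FDFT1, -0.44 for INSIG2, 0.03 for ACSS2, -0.54 for ACACA, 0.54 for ELOVL6, 0.05 for FADS1 and 1.47 for LPIN1. Quantile normalization gave 0.01 for FDPS and FASN, and gene sums without single-library transcripts gave 0.11 for LPIN1. With 1 library left out, LPIN1 ranged from -0.09 to 0.05, INSIG2 from -0.09 to 0.40, FDPS from -0.13 to 0.02, SC5D from -0.02 to 0.45, STARD4 from -0.20 to 0.06 and FASN from -0.15 to 0.05. Without a change of sign, PMVK ranged from 0.01 to 0.21, MVD from 0.07 to 0.21, LSS from -0.25 to -0.10, SQLE from -0.18 to -0.08, FADS2 from -0.21 to -0.08, ACACA from 0.01 to 0.19, CYP51A1 from -0.13 to -0.02, ELOVL6 from -0.17 to -0.01, SREBF2 from -0.13 to -0.03, ACSS2 from -0.09 to -0.02, FADS1 from -0.33 to -0.15, HMGCS1 from -0.21 to -0.08, MVK from -0.49 to -0.06 and TM7SF2 from 0.11 to 0.23. In all, 22 of 714 single-gene values changed sign and 67 lost their call. The cause of these changes was not tested. In the fits that leave 1 library out, the smaller number of libraries and the values of the removed library cannot be told apart.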
